A study of Arabidopsis thaliana with 12 samples.

Results

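Among genes of Arabidopsis thaliana seedlings, 290 stood lower in the rrc1-3 mutant than in Col-0 in the dark and rose in the mutant under red light. They were chosen by their pooled levels in the authors' deposited tables, as the gene ids held in both the dark genotype table and the light response table of rrc1-3, with an rrc1-3 over Col-0 ratio of at most 0.667 in the dark and a red light over dark ratio in rrc1-3 of at least 1.5. Plastid and mitochondrial ids and 10 further named ids were left out, so the 290 are part of 298 nuclear ids that met both thresholds and of 2306 ids held in both tables. RNA of seedlings was sequenced after removal of rRNA, in 12 libraries, with 3 for rrc1-3 in red light, 3 for Col-0 in red light, 3 for rrc1-3 in the dark and 3 for Col-0 in the dark. All seedlings grew in darkness for 4 days, and the red light groups then received 3 h of red light at a fluence rate of 7 µmol per square metre and second. The mutant rrc1-3 is in the Col-0 background, its controls are Col-0 without the mutation, and the labels give no second allele, rescued line or separate organs.

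Dark-grown seedlings elongate, keep closed seed leaves and do not build chloroplasts. Light perceived by phytochromes and cryptochromes switches on photosynthesis, clock and pigment genes, a change known as photomorphogenesis. RRC1 is an SR-like splicing factor that acts in phytochrome B signalling. The G-box is a promoter element bound by bZIP and bHLH transcription factors, among them HY5, the PIFs and ABA-response factors. Abscisic acid (ABA) is the hormone of seed maturation and drought, and late embryogenesis abundant (LEA) proteins and dehydrins are among its targets.

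Each expression value is 1 pooled FPKM per group (fragments scaled by transcript length and library depth) with no values per library, so no spread or depth stands behind it and no test was run on it. The splicing tables give reads per library, and listed features of member genes held 10550 to 14406 reads in rrc1-3 and 17994 to 22974 in Col-0 per dark library, and 34047 to 35242 in rrc1-3 and 36736 to 44052 in Col-0 per red light library. At most 0.474% of features had identical reads in any 2 libraries of a group. Nothing in the labels says that replicates were grown separately, so p-values speak only of the scatter among these libraries, which could be technical. The RRC1 intron at chr5:8634834-8635302 (TAIR10) was retained in the dark at 92.3% ± 5.30 in rrc1-3 and 3.88% ± 0.926 in Col-0, and in red light at 93.2% ± 4.43 in rrc1-3 and 2.98% ± 2.14 in Col-0 (each SD, n = 3). These are bulk seedlings, in which fewer cells of a type and less RNA per cell cannot be told apart. In the authors' deposited dark table, 7 of 9 root hair markers, 6 of 10 guard cell markers, 4 of 9 xylem markers and 6 of 8 mesophyll markers were higher in rrc1-3, none of these markers was lower, and none of 7 phloem markers was listed. None of these markers was a member, and the part of tissue make-up in the members' values was not tested.

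The windows before the gene starts of 4 members are shown, because these members were named most often by the rules for naming genes. Members whose regions hold an annotated small RNA gene were left out of this choice. XERO1 encodes a dehydrin, LHCB1.2 a chlorophyll-binding antenna protein of photosystem II, SIGE (SIG5) a sigma factor of plastid RNA polymerase, and DIP2 (AT5G03210) a protein described in the tables as of unknown function. Each window is the 250 bases before the RefSeq gene start, read 5′ to 3′ on the gene's strand from TAIR10.1, and capitals mark motifs found there. Their places are chr3:18941675-18941924 on the plus strand for XERO1, chr1:10475970-10476219 on the minus strand for LHCB1.2, chr5:8160344-8160593 on the minus strand for SIGE and chr5:763481-763730 on the minus strand for DIP2.
XERO1: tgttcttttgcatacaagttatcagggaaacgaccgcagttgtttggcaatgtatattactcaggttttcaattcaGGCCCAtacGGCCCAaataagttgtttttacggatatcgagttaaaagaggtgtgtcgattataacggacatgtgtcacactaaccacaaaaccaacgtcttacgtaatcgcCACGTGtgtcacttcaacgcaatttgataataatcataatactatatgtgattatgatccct
LHCB1.2: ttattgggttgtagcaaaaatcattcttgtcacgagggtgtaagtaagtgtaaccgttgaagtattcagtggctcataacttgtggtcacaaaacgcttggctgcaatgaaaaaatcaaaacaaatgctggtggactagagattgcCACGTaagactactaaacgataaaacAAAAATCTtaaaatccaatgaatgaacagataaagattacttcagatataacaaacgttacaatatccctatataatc
SIGE: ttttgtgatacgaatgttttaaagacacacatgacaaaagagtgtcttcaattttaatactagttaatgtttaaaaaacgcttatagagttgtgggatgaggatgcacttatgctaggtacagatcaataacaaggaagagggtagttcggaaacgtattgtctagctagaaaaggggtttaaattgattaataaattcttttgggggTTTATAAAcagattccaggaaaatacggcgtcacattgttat
DIP2: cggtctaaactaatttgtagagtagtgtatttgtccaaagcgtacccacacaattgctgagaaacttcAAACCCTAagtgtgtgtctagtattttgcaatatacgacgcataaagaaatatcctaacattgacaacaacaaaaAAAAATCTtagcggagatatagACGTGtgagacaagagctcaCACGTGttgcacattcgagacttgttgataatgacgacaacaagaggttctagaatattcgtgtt
The G-box CACGTG began at position -62 in XERO1 and at -65 in DIP2, counted back from the gene start. XERO1 also held the site II element TGGGCC, as its reverse complement, at -174 and -165. LHCB1.2 held the CCA1-binding letters AAAAATCT at -78 and the core ACGTG, reversed, at -104, and SIGE held TATA box letters in both orientations from -42. DIP2 further held ACGTG at -85, AAAAATCT at -107 and the telo-box AAACCCTA at -182. The authors' own gene region begins 159 bases further downstream for DIP2 and 114 bases further downstream for SIGE than the RefSeq start.

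The members also included the precursors of 4 microRNAs, whose mature strands are shown with the seed, bases 2 to 8, in capitals because the precursors are described further on. All 4 were read from TAIR10.1 at the places RefSeq annotates, with miR163 at chr1:24884359-24884382 (plus strand), miR157c-5p at chr3:6244673-6244693 (minus strand), miR167a-5p at chr3:8108090-8108110 (plus strand) and miR168a-5p at chr4:10578652-10578672 (plus strand).
miR163: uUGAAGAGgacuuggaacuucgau
miR157c-5p: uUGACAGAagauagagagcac
miR167a-5p: uGAAGCUGccagcaugaucua
miR168a-5p: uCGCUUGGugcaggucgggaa
The seeds of these 4 microRNAs all differed from each other.

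In the dark the members had a median ratio of rrc1-3 over Col-0 of 0.485 in the authors' deposited table, a median log2 ratio of -1.04, while all ids listed there had a median log2 ratio of 0.64. Red light raised the members in rrc1-3 by a median of 2.01-fold in the authors' deposited table, a median log2 ratio of 1.00 against 0.47 for all listed ids. These 2 contrasts chose the members and share the rrc1-3 dark libraries, so their directions are a description only. At least 2-fold lower in the dark were 150 members and at least 2-fold higher in light were 145, per the authors' deposited tables. Of annotated nuclear protein-coding genes, 8.68% were listed as lower and 11% as higher in rrc1-3 in the authors' deposited dark table, and 12.8% as higher and 7.49% as lower in light in the authors' deposited light response table. The median member level was 8.40 FPKM in rrc1-3 and 16.1 FPKM in Col-0 in the dark, per the authors' deposited dark table. After light it was 17.6 FPKM in rrc1-3, per the authors' deposited light response table, which is scaled separately. With the 2 tables chained through rrc1-3 in the dark, the red light level of rrc1-3 was at or above the dark level of Col-0 in 143 members and below it in 147. These counts include NFYB3 and CYP71B12, whose rrc1-3 level for 1 or both conditions differs between the deposited tables, and without them they were 143 and 145. Near the dark threshold lay AT4G11175 inside it at 0.663 and AT2G28490 outside it at 0.668, and near the light threshold lay EFL3 inside it at 1.51 and OCT5 outside it at 1.49, as ratios of the authors' deposited tables.

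**Figure D1:**
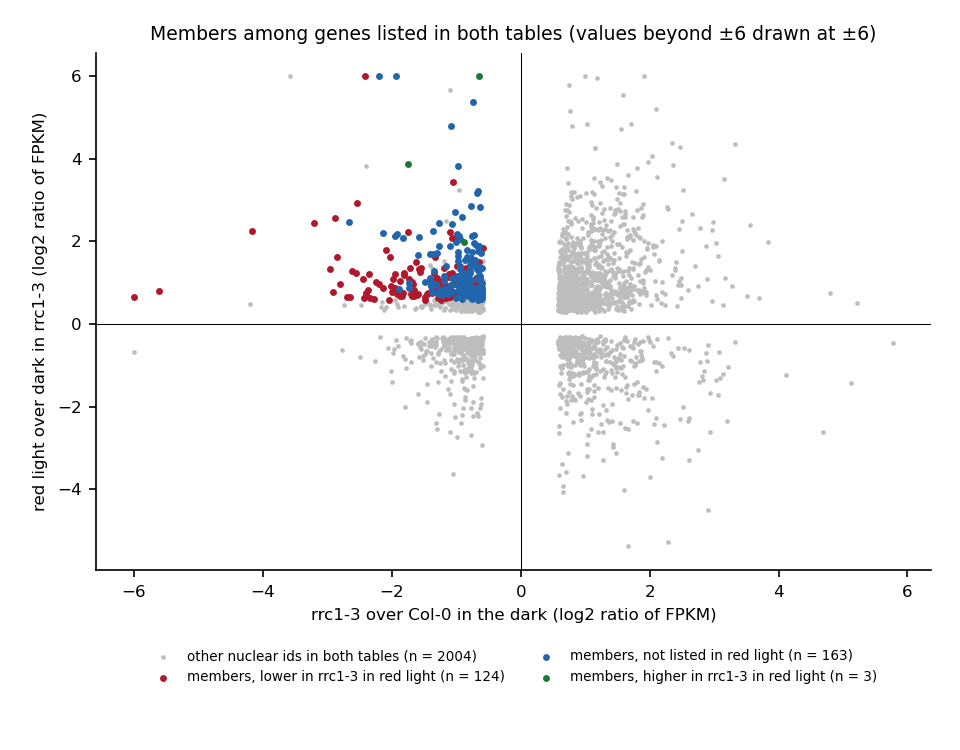
Each point is 1 nuclear gene id held in both of the authors' deposited tables, with the log2 ratio of rrc1-3 over Col-0 in the dark on the x axis and of red light over dark in rrc1-3 on the y axis, and values beyond the frame drawn at its edge. The 290 members fill the upper left corner, which their rule defines, and the 124 that were also lower in red light reach further left than the 163 not listed there.

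The genotype comparison in red light was not used by the rule, although it shares the rrc1-3 red light libraries with the light response. In the authors' deposited red light table, 124 members were lower in rrc1-3 than in Col-0, 3 were higher and 163 were not listed. Over all 2294 nuclear ids held in both other tables, 18.4% were listed as lower and 31.3% as higher in rrc1-3 in red light, and of all annotated nuclear protein-coding genes 6.72% were listed as lower and 7.31% as higher, per the authors' deposited red light table. Members were thus listed as lower in 42.8% of cases, while 62.5% of the 1692 nuclear ids that were lowered in the dark mutant with no listed light response were lower in red light too, as were 58.9% of the 158 ids lowered in the dark and lowered by light, per the authors' deposited tables. Members listed as lower in red light had a median ratio of 0.525 in red light and 0.381 in the dark, per the authors' deposited tables, and in 106 of these 124 the ratio was nearer to 1 in red light. A ratio nearer to 1 is partly built in, since the rule required a low dark ratio and a rise of rrc1-3 in light. No such count is given for the comparison sets. Members not listed in red light had a median dark ratio of 0.551 in the authors' deposited table. The members higher in rrc1-3 in red light were LHCB1.2, RUP1 and AT3G48131, a gene of unknown function. For the 127 members in all 3 tables the response of Col-0 itself was chained, by adding the log2 ratios of the dark and light response tables and subtracting that of red light. This chained Col-0 response had a median of 1.40-fold, against 1.92-fold in rrc1-3 for the same members, as calculated from the authors' deposited tables. The rule required at least 1.5-fold in rrc1-3 and set no bound for Col-0, so a larger rrc1-3 median is partly built in. Of the 127, 124 were listed as lower in rrc1-3 in red light, so they do not stand for all members. The chained Col-0 response was at least 1.5-fold upward in 58 of the 127, at most 0.667 in 2 and between in 67. Without NFYB3 and CYP71B12 these counts were 57, 2 and 66 of 125, and both medians were again 1.40-fold and 1.92-fold.

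**Figure D2:**
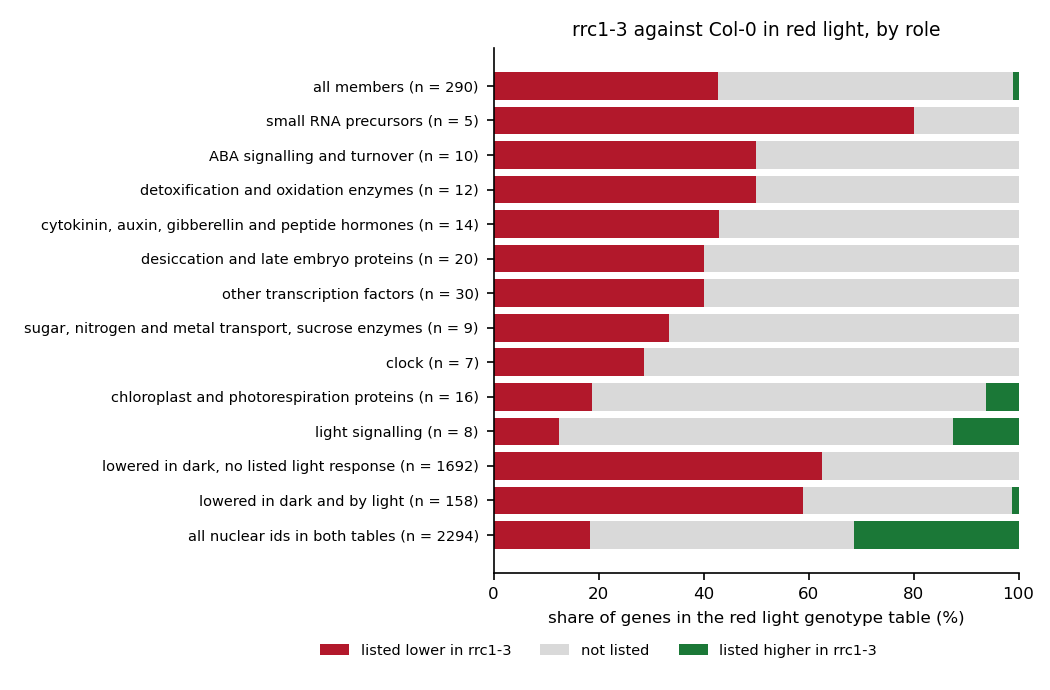
Bars give the share of genes in percent that the authors' deposited red light table lists as lower in rrc1-3, does not list, or lists as higher, for all members, for members by role and for 3 comparison sets. Light signalling and chloroplast members have the smallest lower shares, with 1 of 8 and 3 of 16, and 5 of 10 ABA members are lower.

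The 8 light signalling members had the steepest light responses of the named roles, with a median of 6.08-fold in rrc1-3 in the authors' deposited table, and in all 8 the rrc1-3 red light level passed the Col-0 dark level. BBX30, a small B-box protein, had 11.5 FPKM in red light and 0.138 FPKM in the dark in rrc1-3, an 83.6-fold rise, in the authors' deposited light response table. BBX31, its close relative, was 63.9-fold higher in light in the authors' deposited table, at 19.6 FPKM in red light. RPT2, a signal transducer of phototropism, had 479 FPKM in red light, a 27.8-fold rise, in the authors' deposited light response table. SPA1, which works with COP1 to degrade light-signalling factors in darkness, rose 9.38-fold in the authors' deposited table. RUP1, a repressor of the UV-B receptor UVR8, was 1.60 times Col-0 in rrc1-3 in red light but 0.545 times Col-0 in the dark, per the authors' deposited tables. BBX30 was the only light signalling member still lower in the mutant in red light, at 11.2 FPKM in rrc1-3 against 24.4 FPKM in Col-0, per the authors' deposited table. BBX22, which promotes photomorphogenesis with HY5, had 14.2 FPKM in rrc1-3 and 28.1 FPKM in Col-0 in the dark in the authors' deposited table. BBX19, which delays it, had 4.28 and 7.78 FPKM in rrc1-3 and Col-0 in the same authors' deposited table, and COL1, a relative of the flowering regulator CO, had 9.14 and 14.5 FPKM. Of 14 B-box genes listed by name, the authors' deposited tables gave 4 as lower and 1 as higher in rrc1-3 in the dark, and 8 as higher and 3 as lower in light. Their listed members had a median log2 ratio of -0.98 in the dark, against 0.64 for all listed ids, per the authors' deposited table.

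The 7 clock members were mostly morning genes. CCA1, a MYB factor at the core of the clock that peaks at dawn, had 10.2 FPKM in rrc1-3 against 21.7 FPKM in Col-0 in the dark, and rose 3.69-fold in light, per the authors' deposited tables. LNK1, a coactivator that acts with RVE factors, was at 9.92 FPKM in rrc1-3 against 15.4 FPKM in Col-0 in the dark and rose 7.09-fold in light, per the authors' deposited tables. Its relatives LNK3 (AT3G12320) and LNK4 rose 1.81-fold and 2.36-fold in the authors' deposited table, and LNK4 stayed at 0.606 of Col-0 in red light. RVE6, a MYB factor close to RVE8, had a dark ratio of 0.658 in the authors' deposited table. CDF3, a DOF repressor of flowering that also acts in cold and drought tolerance, rose 4.36-fold in the authors' deposited table. EFL3 (AT2G06255), a small protein of the ELF4 family, had 3.32 FPKM in rrc1-3 against 9.33 FPKM in Col-0 in the dark and rose 1.51-fold in light, per the authors' deposited tables. Of 13 morning clock genes, members and others, 11 were lower and 0 higher in rrc1-3 in the dark, and 10 were higher and 0 lower in light, per the authors' deposited tables. Their listed genes had median log2 ratios of -1.11 in the dark, against 0.64 for all listed ids, and 1.39 in light, against 0.47, per the authors' deposited tables. Of 15 day and evening clock genes 2 were higher and 0 lower in rrc1-3 in the dark in the authors' deposited table, and 0 were members.

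**Figure D3:**
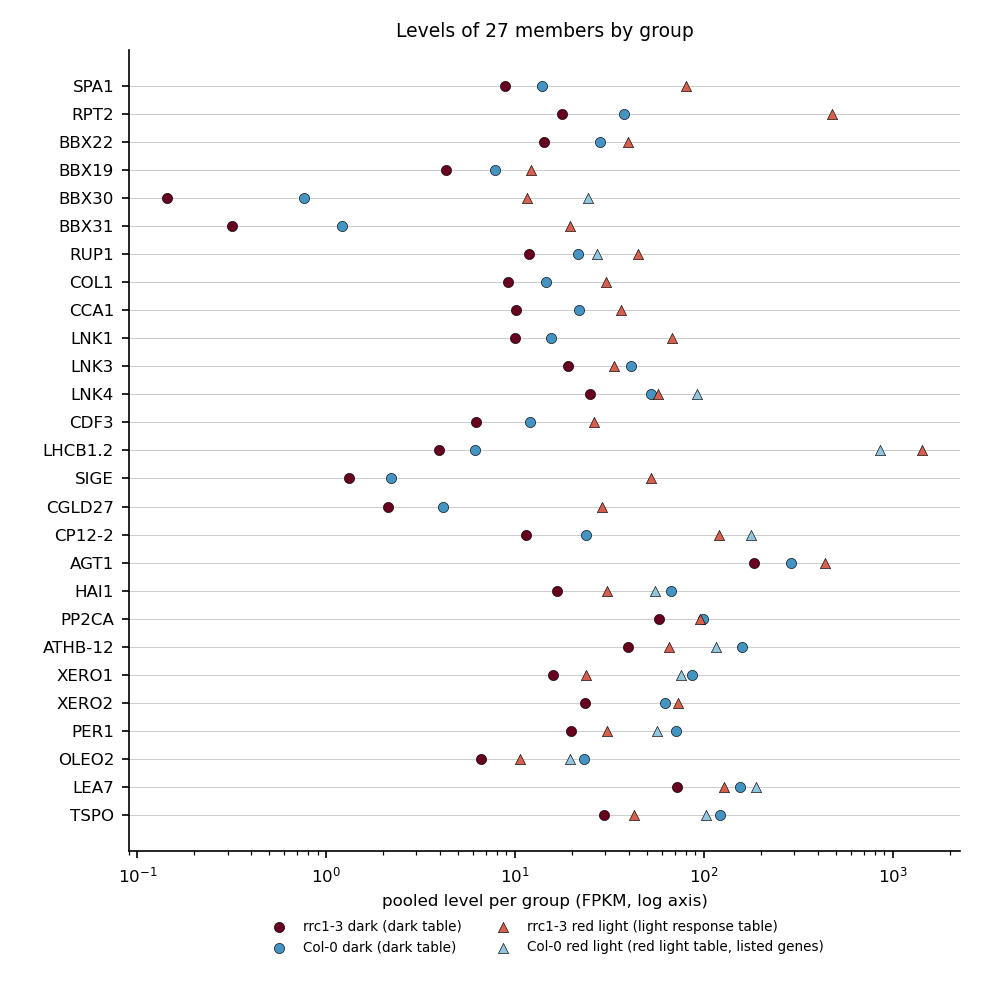
Points give the pooled FPKM of 27 members on a log axis, with circles for the dark (authors' deposited dark table) and triangles for red light (rrc1-3 from the light response table, Col-0 from the red light table, where listed). Light signalling, clock and chloroplast genes at the top have their rrc1-3 red light triangle right of the Col-0 dark circle, except LNK3, while most ABA and late embryo genes at the bottom have it to the left.

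The 16 chloroplast and photorespiration members rose by a median of 3.21-fold in light in rrc1-3 in the authors' deposited table, and in all 16 the rrc1-3 red light level passed the Col-0 dark level. LHCB1.2 had the largest light ratio of all members, 377-fold, and reached 1436 FPKM in rrc1-3 in the authors' deposited light response table. It was higher in rrc1-3 than in Col-0 in red light, at 1394 FPKM against 853 FPKM in the authors' deposited table. LHCB1.2 belongs to a cluster of near-identical genes, so reads may have been divided among copies. SIGE had 1.32 FPKM in rrc1-3 and 2.21 FPKM in Col-0 in the dark and rose 41.4-fold in light, per the authors' deposited tables. In the dark SIGE was an exception within its list of 13 plastid transcription genes. The authors' deposited dark table placed 8 of these 13 above Col-0 in the mutant and only SIGE below it. Their light response table had 12 of the 13 rising in rrc1-3 and 0 falling. CGLD27, a conserved protein of green plants and diatoms, rose 14.1-fold in the authors' deposited table, and CP12-2, which holds Calvin cycle enzymes inactive in the dark, rose 10.8-fold. AT2G26500, the petM subunit of the cytochrome b6f complex, rose 2.81-fold in light but was in red light at 302 FPKM in rrc1-3 against 590 FPKM in Col-0, per the authors' deposited tables. AGT1, the serine-glyoxylate aminotransferase of photorespiration, had 183 FPKM in rrc1-3 and 290 FPKM in Col-0 in the dark and rose 2.48-fold, per the authors' deposited tables. SPS2 (AT1G17050), a solanesyl diphosphate synthase for plastoquinone, rose 6.07-fold in the authors' deposited table. Of 31 genes of chlorophyll and carotenoid synthesis, 20 were higher and 0 lower in rrc1-3 in the dark in the authors' deposited table, and 0 were members.

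The 10 ABA members rose by a median of 1.91-fold in rrc1-3, per the authors' deposited table, and 4 reached the Col-0 dark level. HAI1, a protein phosphatase 2C that turns down ABA signalling, had 16.6 FPKM in rrc1-3 against 67.2 FPKM in Col-0 in the dark, and in red light 29.7 FPKM in rrc1-3 against 55.4 FPKM in Col-0, per the authors' deposited tables. Its relative HAI3 was at 0.128 of Col-0 in the dark and 0.320 in red light, per the authors' deposited tables. PP2CA, another phosphatase of the kind, had 57.5 FPKM in rrc1-3 against 99.3 FPKM in Col-0 in the dark in the authors' deposited table. PYL9, an ABA receptor, had a dark ratio of 0.655 in the authors' deposited table, and CYP707A1 and CYP707A2, which break ABA down, had 0.636 and 0.274. ATHB-12, an ABA-induced homeodomain factor, had 39.8 FPKM in rrc1-3 against 159 FPKM in Col-0 in the dark in the authors' deposited table. For the 5 ABA members in all 3 tables the chained Col-0 light response had a median of 1.01-fold. All 5 were listed as lower in rrc1-3 in red light, so they do not stand for all 10. Of 37 genes of cold, dehydration and ABA response, the authors' deposited tables gave 12 as lower and 5 as higher in rrc1-3 in the dark, 25 as higher and 0 as lower in light, and 6 as lower and 14 as higher in rrc1-3 in red light. Their listed genes had median log2 ratios of -0.88 in the dark and 0.95 in red light between genotypes, per the authors' deposited tables, beside 0.64 and 0.59 for all listed ids.

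The 20 desiccation and late embryo members rose least of the roles with 10 or more genes, by a median of 1.71-fold in the authors' deposited table, and 2 of 20 reached the Col-0 dark level. XERO1 had 15.9 FPKM in rrc1-3 against 86.4 FPKM in Col-0 in the dark, and in red light 23.1 FPKM in rrc1-3 against 75.6 FPKM in Col-0, per the authors' deposited tables. XERO2, another dehydrin, rose 3.21-fold in rrc1-3 to 73.0 FPKM in light, per the authors' deposited table, past 62.3 FPKM of dark Col-0 in the dark table. PER1, a seed peroxiredoxin, had 19.9 FPKM in rrc1-3 against 71.2 FPKM in Col-0 in the dark, and in red light 29.8 FPKM in rrc1-3 against 56.3 FPKM in Col-0, per the authors' deposited tables. OLEO2, an oil body protein, had dark and red light ratios of 0.282 and 0.532 in the authors' deposited tables. LEA7 and TSPO, an LEA protein and a stress-induced membrane protein, had red light ratios of 0.656 and 0.407 in the authors' deposited table. The 8 members of this role in all 3 tables had a median chained Col-0 light response of 0.914-fold. All 8 were listed as lower in rrc1-3 in red light, so they do not stand for all 20. Outside this role and ABA, the lowest such median was 1.31-fold, in detoxification (1.25-fold without CYP71B12). The highest was 17.7-fold, in light signalling, where 2 members had a chained value. Of 16 late embryo and storage genes, 5 were higher and 4 lower in rrc1-3 in the dark, and 11 were higher and 0 lower in light, per the authors' deposited tables. The listed ones had a median log2 ratio of 1.02 in the dark in the authors' deposited table, and OLEO2 and PER1 were among the 4 that were lower.

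Hormone members numbered 14. LOG1, which releases active cytokinin, had 7.78 FPKM in rrc1-3 against 27.5 FPKM in Col-0 in the dark and rose 4.22-fold in light, per the authors' deposited tables. ARR7 and ARR9, type-A response regulators that damp cytokinin signalling, rose 2.26-fold and 1.72-fold in the authors' deposited table, and ARR7 stayed at 0.469 of Col-0 in red light. CKX3, a cytokinin oxidase, lay near the bottom of the range, at 0.173 FPKM in rrc1-3 and 0.343 FPKM in Col-0 in the dark in the authors' deposited table. GASA6, a gibberellin-regulated peptide, was among the most abundant members, in red light at 388 FPKM in rrc1-3 against 803 FPKM in Col-0, per the authors' deposited table. The phytosulfokine precursor PSK6 had 29.6 FPKM in rrc1-3 against 86.4 FPKM in Col-0 in the dark in the authors' deposited table. AT4G38840, a SAUR-like auxin-responsive gene, rose 6.55-fold in the authors' deposited table. Most listed auxin-responsive genes went the other way in light. Of 121 such genes 9 were higher and 41 lower in light in rrc1-3, per the authors' deposited table. In the dark 16 were higher and 40 lower in rrc1-3 than in Col-0, per the authors' deposited table. Of 35 cytokinin genes 11 were lower and 6 higher in rrc1-3 in the dark, and 10 higher and 5 lower in light, per the authors' deposited tables.

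The 30 other transcription factors rose by a median of 2.11-fold, and 12 were lower in rrc1-3 in red light, per the authors' deposited tables. HSFA6A, a heat stress factor, was at 0.108 of Col-0 in the dark and 0.430 in red light, per the authors' deposited tables. SOC1, a MADS-box integrator of flowering, had 1.11 FPKM in rrc1-3 against 6.55 FPKM in Col-0 in the dark in the authors' deposited table. MYB15, a cold-related repressor, had a ratio of 0.197 in red light, lower than its 0.482 in the dark, per the authors' deposited tables. MYB4, a repressor of phenylpropanoid genes, had 0.494 in the dark and 0.660 in red light in the authors' deposited tables. DOF5.4 and NFYB2 were abundant factors, at 58.0 and 63.0 FPKM in dark rrc1-3 against 115 and 98.2 FPKM in dark Col-0, per the authors' deposited table.

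Among transport genes, SWEET2, a sugar carrier of the vacuole membrane, had 26.9 FPKM in rrc1-3 against 115 FPKM in Col-0 in the dark, and in red light 88.0 FPKM in rrc1-3 against 191 FPKM in Col-0, per the authors' deposited tables. SWEET17, a vacuolar fructose carrier, had 0.398 and 0.574 of the Col-0 level in the dark and in red light in the authors' deposited tables. IRT1, the iron uptake transporter of roots, was low, at 0.818 FPKM in rrc1-3 against 3.04 FPKM in Col-0 in the dark in the authors' deposited table. Among 12 detoxification and oxidation enzymes, the glutathione transferases GSTU19 and GSTU5 had 173 and 115 FPKM in dark rrc1-3 against 402 and 227 FPKM in dark Col-0, per the authors' deposited table. Reads of such large families may be divided among similar genes. MSD2, a manganese superoxide dismutase, was at 0.143 of Col-0 in the dark and 0.287 in red light, per the authors' deposited tables.

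Of 5 small RNA precursors, MIR163 had 0.189 FPKM in rrc1-3 and 0.867 FPKM in Col-0 in the dark and rose 161-fold to 29.4 FPKM in light, per the authors' deposited tables. Its microRNA, shown above, acts on methyltransferase genes and is known to be induced by light. The precursors of miR157c, miR167a and miR168a, whose targets are SPL factors, auxin response factors and ARGONAUTE1, had red light ratios of 0.517, 0.412 and 0.560 in the authors' deposited table. TASIR-ARF, the source of trans-acting small RNAs against auxin response factors, had in red light 55.7 FPKM in rrc1-3 against 89.2 FPKM in Col-0, per the authors' deposited table. FPKM of a precursor counts its RNA fragments and not the mature strands printed above.

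Some members have values that may not belong to the named gene. BHLH61 had 0.674 FPKM in rrc1-3 against 346 FPKM in Col-0 in the dark, and ADK1 had 16.7 FPKM against 821 FPKM, in the authors' deposited table, and both regions hold annotated small RNA genes. In red light BHLH61 had 0.994 FPKM in rrc1-3 against 243 FPKM in Col-0, and ADK1 27.3 FPKM against 1158 FPKM, in the authors' deposited table. Small RNA genes lie in the regions of 5 members in all, and 49 regions overlap another annotated gene, with no strand stated for the counting. NFYB3 had 3.94 FPKM in dark rrc1-3 in the authors' deposited dark table but 10.7 FPKM in the light response table, so its chained values rest on levels that differ. No role was given to 159 members, and 61 members are described as unknown. Among those without a role, AT4G16980, an arabinogalactan protein of the cell wall, rose 4.52-fold to 480 FPKM, and AT2G27385, an extensin-like protein, had 169 FPKM in dark rrc1-3 against 288 FPKM in dark Col-0, per the authors' deposited tables. AT5G57785 had 21.9 FPKM in dark rrc1-3 against 162 FPKM in dark Col-0 and rose 5.88-fold in light, per the authors' deposited tables. DIP2 had 15.4 FPKM in rrc1-3 against 117 FPKM in Col-0 in the dark, and in red light 25 FPKM in rrc1-3 against 92.5 FPKM in Col-0, per the authors' deposited tables.

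Promoters were searched over 300 bases, from 250 before to 50 after the RefSeq start, on both strands, and all 290 members matched. The G-box CACGTG was held by 73 members, or 25.2%, against 7.68% of 27443 nuclear protein-coding genes. It was held by 9.12% of ids lowered in dark rrc1-3 with no listed light response, by 14.6% of those lowered in the dark and by light, and by 11.2% of those raised in both. The core ACGTG, which lies within the G-box, was held by 45.5% of members against 26.7% of all genes. Desiccation and late embryo members held the G-box in 14 of 20 cases, among them XERO1, PER1, LEA7 and TSPO, and 17 of 20 held ACGTG. In the clock role 3 of 7 held the G-box, namely CCA1, LNK1 and LNK3, and 2 of 8 light signalling members did, BBX22 and BBX30. Members not listed in red light held it in 28.2% and those lower in red light in 21.8%. The evening element AAAATATCT was held by 4.48% of members and 2.82% of all genes, and AAAAATCT by 10.7% and 7.88%. The I-box GATAAG was held by 20% and 14.6%, the site II element TGGGCC by 10.7% and 15.5%, the telo-box AAACCCTA by 4.14% and 6.22%, and the TATA box TATAAA by 59% and 52.1%. A match describes letters only, and no enrichment was tested.

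**Figure D4:**
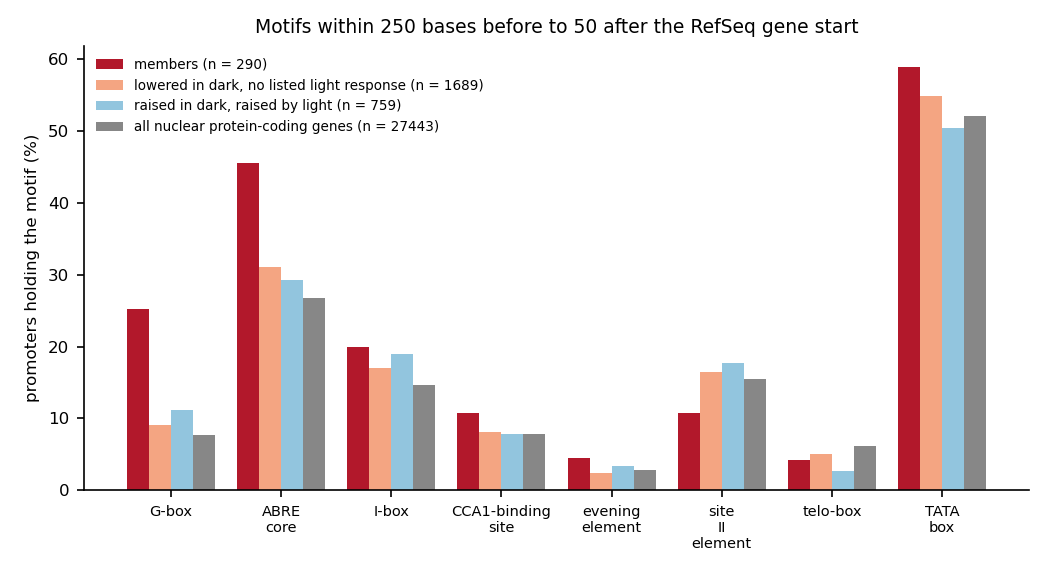
Bars give the percent of promoters that hold each motif on either strand, for members, for 2 comparison sets and for all nuclear protein-coding genes. The G-box share of members, 25.2%, stands above the other sets, which lie between 7.68% and 11.2%.

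In structure the members were close to ids lowered in the mutant in the dark with no listed light response. Their median exon length was 1316 nt, against 1175 nt in ids lowered in the dark with no listed light response and 1517 nt over all nuclear protein-coding genes. Median exon GC content was 39.4% in members, 39.5% in that comparison set and 41.3% over all. Members had a median of 2 introns, and 24.5% had none, against 25% and 20.5%. The 158 ids lowered in the dark and by light differed more, with a median exon length of 1096 nt, a median of 1 intron and 38% without introns. The members lay on all 5 chromosomes, with 82 on chromosome 1 and 41 on chromosome 4. Next to each other on the chromosome lay 7 pairs of members, among them XERO2 and XERO1, 313 nt apart on the plus strand, and CYP71B11 and CYP71B12.

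Splicing was measured as the share of reads that retain an intron or include an exon part. These shares come from the same libraries as the gene levels, and whether they are independent of gene level was not tested. A feature is an intron or exon part listed by the authors, numbered as in their tables, and the junction test compared including and excluding reads between groups in edgeR. A listed feature was present for 47 members in the dark table and 45 in the red light table, that is 16.2% and 15.5%, against 18.6% and 18% of nuclear ids in both rule tables. In the light response table it was 16 members, 5.52%, against 6.32%. Features are in these tables because the authors found the groups to differ, so a high share of calls is built in. Over the 3 tables together, a feature was listed for 71 members, or 24.5%, with no such share given for other ids. By role these were 5 of 7 clock, 6 of 16 chloroplast and 4 of 10 ABA members and 9 of 30 other transcription factors. Transport, detoxification and light signalling had 3 of 9, 3 of 12 and 2 of 8. Desiccation, hormone and small RNA members had 1 of 20, 0 of 14 and 0 of 5, and members without a role 38 of 159. Differences between roles were not tested.

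In the dark, 25 of 55 member features differed between rrc1-3 and Col-0 at an edgeR adjusted p under 0.05, 18 higher and 7 lower in rrc1-3, against 53.8% called over all 6244 features, with 26.1% higher and 27.7% lower. Without library 2 of rrc1-3 dark the count was 15, with 9 higher and 6 lower. Scaling including and excluding reads by their own library totals gave 23 higher and 6 lower. ECT8, an m6A reader of the YTH family, had its intron feature I001 retained at 33.5%, 42.1% and 38.8% in rrc1-3 libraries, against 19.8%, 19.7% and 19.4% in Col-0 libraries (log2 odds 1.34, edgeR adjusted p = 0.00014). The groups did not overlap, and the means were 38.2% ± 4.36 in rrc1-3 and 19.6% ± 0.180 in Col-0 (SD, n = 3 each). In AT2G24420, a DNA repair ATPase-related gene, a 91 nt intron past the stop codon (E016, chr2:10383060-10383150, plus strand) was retained at 7.77% ± 0.366 in rrc1-3 and 3.30% ± 1.01 in Col-0 (SD, n = 3 each; log2 odds 1.32, edgeR adjusted p = 0.000711). AT5G61670, a homolog of the cauliflower ORANGE protein of carotenoid accumulation, went the other way. Its feature I008 (chr5:24785259-24785522, plus strand), which lies past the stop codon, was kept in 71.4%, 77.1% and 72.0% of reads in rrc1-3 libraries against 97.9%, 96.1% and 91.6% in Col-0 libraries (log2 odds -2.81, edgeR adjusted p = 2.97e-05). LNK4 used a 3 nt extension at an alternative 3′ splice site in 77.5% ± 3.39 of reads in rrc1-3 and 87.8% ± 1.08 in Col-0 (SD, n = 3 each; log2 odds -1.05, edgeR adjusted p = 0.00108). The alternative 5′ splice site feature E004 of ACHT4, a thioredoxin of chloroplasts, was at 59.3% ± 5.84 in rrc1-3 and 52.9% ± 6.38 in Col-0 (SD, n = 3 each), and the groups overlapped (edgeR adjusted p = 0.513). The longer ACHT4 feature Io006, with the same excluding reads, was called higher in rrc1-3 (log2 odds 1.45, edgeR adjusted p = 0.000547). It was at 98.1% ± 0.495 in rrc1-3 and 95.1% ± 0.340 in Col-0 (SD, n = 3 each).

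CYP71B20, a cytochrome P450, and 2 further members carry short introns whose sequences are shown because their retention differed in 1 or more of the contrasts. Each is printed 5′ to 3′ on the gene's strand from TAIR10.1 with its splice site letters in capitals, and each lies between coding exons. CYP71B20 I001 is at chr3:9579019-9579096, CGLD27 I002 at chr5:26878090-26878178 and AT4G28025 I001 at chr4:13935887-13935971, all on the minus strand.
CYP71B20: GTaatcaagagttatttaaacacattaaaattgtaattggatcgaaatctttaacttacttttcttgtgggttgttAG
CGLD27: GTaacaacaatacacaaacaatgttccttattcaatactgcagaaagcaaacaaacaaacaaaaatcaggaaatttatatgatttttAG
AT4G28025: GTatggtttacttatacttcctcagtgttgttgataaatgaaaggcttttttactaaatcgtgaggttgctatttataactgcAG
Of 92 intron features of members, 91 began with GT and ended with AG in this reference. The intron of CYP71B20 was retained less in rrc1-3, with dark means of 9.54% ± 1.32 against 21.1% ± 0.924 in Col-0 (SD, n = 3 each; log2 odds -1.34, edgeR adjusted p = 0.000143). In red light it was at 14.5% ± 6.02 in rrc1-3 against 27.6% ± 4.26 in Col-0 (SD, n = 3 each; log2 odds -1.20, edgeR adjusted p = 0.0025).

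In red light, 44 of 66 member features differed between the genotypes at an edgeR adjusted p under 0.05, with 41 higher and 3 lower in rrc1-3, against 57.5% called over all 6003 features, 36.6% higher and 20.8% lower. Scaled by their own library totals, 24 were higher and 8 lower, so the split depends on this choice. AT2G26500, the petM gene, had its 5′ UTR intron feature Io003 (chr2:11270268-11270367, plus strand) at 90.3%, 88.8% and 90.5% in rrc1-3 libraries against 68.0%, 70.7% and 70.3% in Col-0 libraries (log2 odds 1.95, edgeR adjusted p = 6.28e-06). An Io feature spans a whole intron in which alternative parts are annotated, so its share may leave out reads of other splice forms. Reads spliced over Io003 numbered 23, 30 and 33 in rrc1-3 libraries, against 1508, 1652 and 1943 over the overlapping intron I001. With nearly the same boundary reads, I001 was at 12.8% ± 0.816 in rrc1-3 and 3.34% ± 0.234 in Col-0 (SD, n = 3 each; log2 odds 2.08, edgeR adjusted p = 1.45e-08). AGT1 had a 5′ UTR intron, Io004, at 35.7% ± 3.32 in rrc1-3 and 21.5% ± 0.795 in Col-0 (SD, n = 3 each; log2 odds 1.02, edgeR adjusted p = 0.000135). The overlapping AGT1 intron I005 was at 14.2% ± 2.68 in rrc1-3 and 7.79% ± 0.953 in Col-0 (SD, n = 3 each; log2 odds 0.97, edgeR adjusted p = 0.00029). PEX11D, a peroxisome division protein, had Io008, also in the 5′ UTR, at 41.6% ± 5.86 in rrc1-3 and 22.7% ± 1.17 in Col-0 (SD, n = 3 each; log2 odds 1.28, edgeR adjusted p = 0.00044). AT5G61670 I008 was again lower, at 70.4% ± 6.90 in rrc1-3 against 96.1% ± 0.707 in Col-0 (SD, n = 3 each; log2 odds -3.32, edgeR adjusted p = 1.87e-06). NSI, a chloroplast acetyltransferase, had 5 introns called higher, the most of any member in the red light table, and Kin3, BAG2, LNK1 and LNK4 also had introns called higher.

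The dark and red light genotype tables share no library. Of the member features, 24 were listed in both, 43.6% of the dark and 36.4% of the red light list, and 23 of the 24 had the same direction, beside 93.6% of 2376 features listed in both over all genes. In both conditions 11 of the 24 were called, 9 higher and 2 lower in rrc1-3. Over all genes 1052 of the 2376 were called in both, 605 higher, 443 lower and 4 in opposite directions. The exception in direction was intron I002 of BGLU45, a beta-glucosidase, with log2 odds of -1.87 in the dark and 2.54 in red light. The difference of genotype effects between red light and dark was tested on the 24 of those features with the same junctions, among 2349 over all genes, as an interaction in edgeR. It was called for 0 of 24 and 0% over all (smallest edgeR adjusted p of a member = 0.618), while 3 of 24 and 5.96% of all had an unadjusted p under 0.05. DESeq2 called 0 of the 24 and 3 over all. BGLU45 I002 had the smallest unadjusted interaction p, 0.0122 in edgeR.

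**Figure D5:**
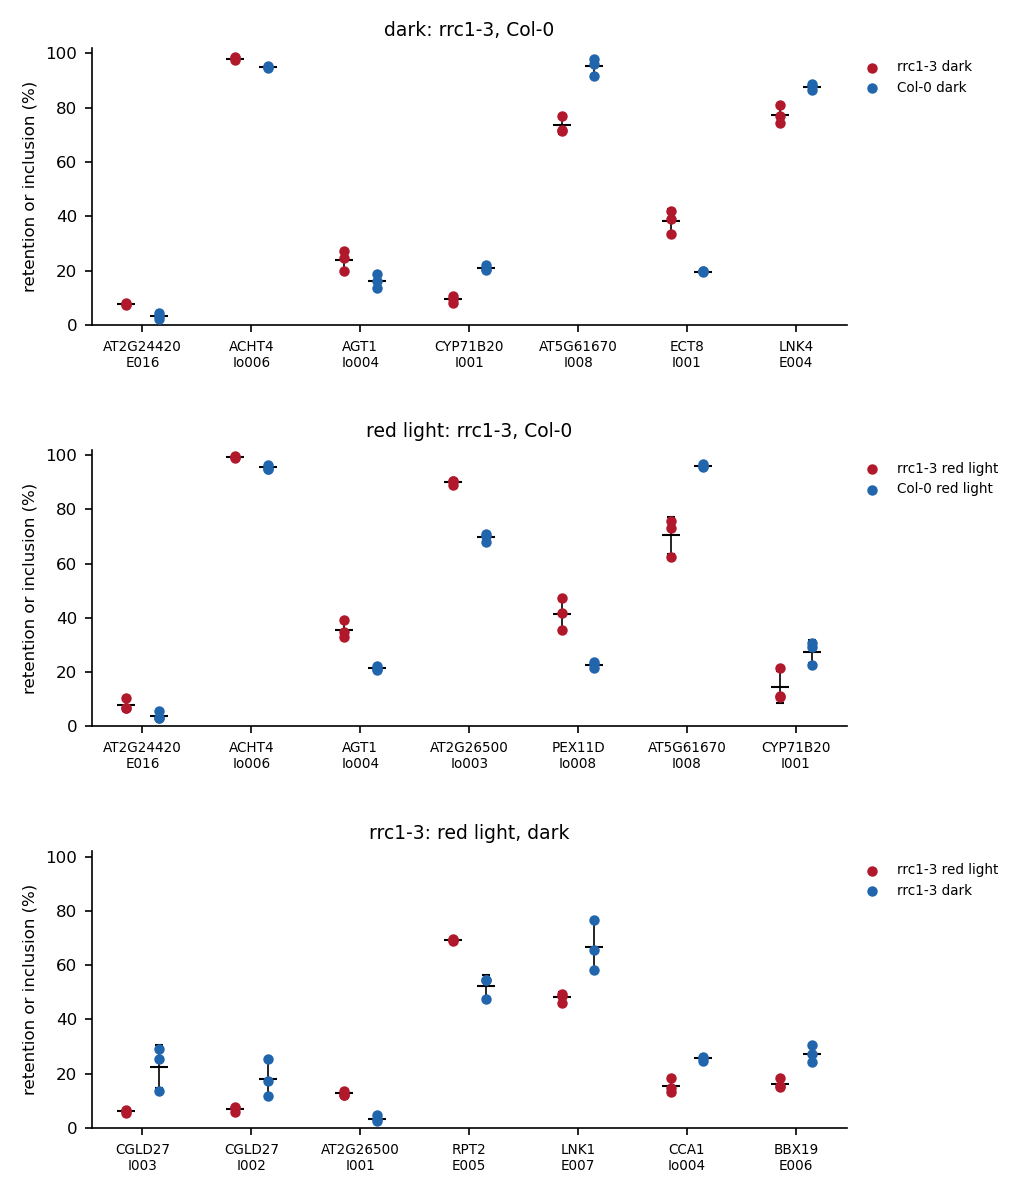
Points are single libraries and bars the mean ± SD of 3, with retention or inclusion in percent on the y axis, for 7 member features per comparison, from top to bottom rrc1-3 against Col-0 in the dark, rrc1-3 against Col-0 in red light, and red light against dark in rrc1-3. AT5G61670 and CYP71B20 lie lower in rrc1-3 in both conditions, LNK4 lies lower in the dark, the other genotype features lie higher, and both CGLD27 introns lie lower in red light than in the dark.

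Red light against dark in rrc1-3 called 20 of 22 member features in edgeR, 11 higher and 9 lower in light, against 86.6% over all 843 features, with 63.7% higher and 22.9% lower. Scaled by library totals, 5 were higher and 9 lower. The intron I002 of CGLD27 printed above was retained at 5.83%, 7.28% and 7.74% in red light libraries against 11.9%, 25.2% and 17.3% in dark libraries (log2 odds -1.65, edgeR adjusted p = 0.00117). Its neighbour I003 was at 6.20% ± 0.688 in red light and 22.7% ± 8.01 in the dark (SD, n = 3 each; log2 odds -2.23, edgeR adjusted p = 0.000202). Reads spliced over I002 numbered 452, 541 and 590 in red light libraries and 26, 40 and 31 in dark libraries, beside the 14.1-fold rise of the gene in the authors' deposited table. CCA1 kept feature Io004 in 15.5% ± 2.76 of reads in red light against 25.7% ± 0.781 in the dark (SD, n = 3 each; log2 odds -0.93, edgeR adjusted p = 0.0024). The CCA1 intron I005, which lies within Io004, was not called (edgeR adjusted p = 0.437). It was at 74.1% ± 7.31 in red light and 79.15% ± 8.54 in the dark (SD, n = 3 each), and the groups overlapped. LNK1 included exon E007, of 130 nt, in 48.1% ± 1.86 in red light against 66.8% ± 9.30 in the dark (SD, n = 3 each; log2 odds -1.14, edgeR adjusted p = 0.00175). BBX19 used its alternative 5′ splice site part E006 in 16.3% ± 1.88 in red light against 27.3% ± 3.08 in the dark (SD, n = 3 each; log2 odds -0.94, edgeR adjusted p = 0.0138), and without library 2 of rrc1-3 red light the edgeR adjusted p was 0.053. RPT2 retained a part of 83 nt, E005, in 68.7%, 69.4% and 69.3% of reads in red light libraries against 47.4%, 54.6% and 54.6% in dark libraries (log2 odds 1.04, edgeR adjusted p = 0.000332). The petM intron I001 was at 12.8% ± 0.816 in red light against 3.46% ± 1.17 in the dark (SD, n = 3 each; log2 odds 2.06, edgeR adjusted p = 4.9e-06), and the intron of AT4G28025 printed above at 7.98% ± 0.980 against 3.00% ± 0.553 (SD, n = 3 each; log2 odds 1.47, edgeR adjusted p = 0.00025).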

How the data were processed

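The 12 libraries were aligned with TopHat2 to TAIR10, per the submitters' processing notes (version not given in the sources used here). The deposited expression tables hold 1 pooled FPKM value per group with the p-value and q-value of the authors for genes they called, in the layout of Cuffdiff, so these values were copied and no count test was run, although one had been planned for tables of counts. The largest deposited q-value of a member was 0.0444 in the dark and 0.0464 in the light response. The deposited splicing tables hold counts of reads per junction and library, a fraction or score per group, log2 changes and an FDR, per the file headers. In the splicing tables columns X1 to X3 were read as libraries 1 to 3 of the first group and X4 to X6 as libraries 1 to 3 of the second. For rrc1-3 in the dark the reads of X4 to X6 equalled those of X1 to X3 of the light response table in 100% of 176 shared features, while for rrc1-3 in red light only the running number gives the library. Fractions recomputed from the counts matched the deposited ones within 1e-06 in 99.5% to 99.9% of features.

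The junction test modelled inclusion and exclusion counts with a term per library (edgeR 4.0.16 in R 4.3.3, glmQLFit and glmQLFTest), adjusted by Benjamini and Hochberg over all features of a table, and was tested on simulated data. DESeq2 1.42.0 was an alternative. Promoters, introns and microRNAs were read from RefSeq TAIR10.1 with Python 3.11.15. Members, roles and gene lists were chosen with earlier results of these data known. Genes were named by rank of change or level and up to 4 per list. Features were named as the 8 with the smallest deposited FDR and the 4 largest changes each way per table. Other genes and features were named for their role after their values were seen.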

Additional observations from a re-analysis of the deposited data

How the results depend on the processing

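With a fold of 2 in place of 1.5 in both tables, 73 members remained, of which 44 were listed and 43 lower in the red light table. A minimum of 1 FPKM, a pseudocount of 1 and, added after seeing the data, leaving out regions with small RNA genes or overlapping genes, or NFYB3 and CYP71B12 from the chained values, kept every count within 1.5 times and every median on its side of 0. Called member features in the dark numbered 15 to 25 when 1 library was left out, with 9 to 18 higher and 6 to 7 lower. The lowest count came without library 2 of rrc1-3 dark. In red light they numbered 35 to 44, with 32 to 41 higher and 3 lower throughout, in the light response 17 to 19, with 9 to 10 higher and 8 to 9 lower, and for the difference of effects 0. Scaling by library totals gave 24 higher and 8 lower in red light and 5 higher in the light response. The cause was not tested. Of the values of single named features under all alternatives, 360 kept call and direction, 32 lost the call, 4 gained it and none reversed. In the dark the calls of AGT1 Io004, petM Io003, AT5G43570 I001 and CYP71B20 E003 were lost without single libraries, and in red light those of BLH1, AT3G53270 and AT5G43570. With the library number as a replicate block, 25 member features were called in the dark, 44 in red light, 20 in the light response and 0 for the difference, and no call of a named feature changed. Deviations of same-numbered libraries correlated at -0.0256 to 0.0432, which cannot settle whether same-numbered libraries shared a batch. In the light response every library correlated best with its own number, in the dark comparison libraries 1 and 2 did, and in red light no library did. Expression tables give no depth, so the precision of FPKM values is unknown.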

Other observations

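Several members behaved unlike their role. In 18 members the genotype gap was wider in red light than in the dark, and MYB15 was the 1 transcription factor among them, with a ratio of 0.197 in red light and 0.482 in the dark in the authors' deposited tables. AT3G48131, of unknown function, was at 0.298 of Col-0 in the dark and 2.46 times Col-0 in red light, after a 14.7-fold rise in rrc1-3, per the authors' deposited tables. Among detoxification members 7 of 12 promoters held the I-box GATAAG, against 14.6% of all nuclear protein-coding genes and 30.4% of ids lowered in the dark and by light. It was the highest I-box share of any role, picked out of 8 motifs over all roles, and no enrichment was tested. NFYB3 and CYP71B12 were the members whose rrc1-3 level differed between tables, NFYB3 in the dark and in red light and CYP71B12 in red light. In rrc1-3 in red light NFYB3 had 21.7 FPKM against 3.67 FPKM and CYP71B12 1.60 FPKM against 0.753 FPKM, in the authors' deposited light response and red light tables.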
